A study of Mus musculus with 753 samples.

Results

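The Gata6 lineage-positive (lin+) keratinocytes of mouse back skin were compared between a wound at day 6 and unwounded skin, which counts as day 0. Lin+ cells were taken by the deposited annotation, as the cells called Gata6 lineage-positive in the batch whose values are all RPKM (reads per kilobase of gene, relative to the depth of the cell). This gave 139 cells, 93 of day 6 and 46 of day 0, of the 684 annotated cells in the series. The deposited identities placed 44 day 6 cells and 21 day 0 cells in the basal interfollicular epidermis (IFE-B), and 26 and 17 cells in the upper hair follicle group uHF-I, and both identities were also compared on their own.

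Gata6 is a zinc finger transcription factor that marks the sebaceous duct and the junctional zone, where the follicle opens into the epidermis. The progeny of these cells keep the tdTomato label, so lin+ cells are descendants of Gata6-expressing cells and need not express Gata6 when they are sorted. Upper follicle cells are known to leave their niche and to take part in closing a skin wound, and keratinocytes at a wound are known to change their keratins, their adhesion to the basement membrane and their immune genes.

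Both groups came from adult Gata6EFGPCreERT2 Rosa26-fl/STOP/fl-tdTomato mice, genotype Cre (+/-) tdTomato (+/-), in which the Gata6 gene drives the tamoxifen-dependent Cre and Cre switches on tdTomato for good. Both had been given 4-hydroxy-tamoxifen on clipped back skin, so what the drug and the alleles do is shared by the groups. The day 6 cells came from a punch of the wound site, narrower than the wound so as to leave out unwounded skin, and the day 0 cells from skin away from the wounds of mice that were killed at later days. CD45-negative single cells were sorted and sequenced full length by Smart-seq2, a method with a library for each cell.

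By the methods, the day 6 mice were pooled into separate replicates, but the labels name no mouse or replicate for a cell. Each side was therefore taken as 1 mouse set, and a difference between the sides had no replicate check. No p-value, SE or test is given, "higher" and "lower" mean at least 2-fold on the scale used, and intervals are exact 95% binomial intervals of shares of cells, which cover counting error only. The sides also lay in different library pools, so day and pool cannot be told apart. Day 6 libraries carry 2 series numbers, with 47 and 46 annotated cells, which may or may not be the replicates, and the values of the series are given where they differ. A second unwounded lin+ set of 47 cells, from another mouse set and from a batch deposited in another unit, stands beside some values as unwounded set 1, and its batch and its mice cannot be told apart.

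A level is the mean over cells of RPKM scaled to a sum of 1000000 per cell, so it is per length and can be set beside the level of another gene. A fold change is log2 of the ratio of the levels after adding 1 to each, which understates the change of low genes. Genes with a level of at least 10 on either side were compared. A median of 3036066 reads and 2308 genes was found per day 0 cell, and 3294701 reads and 2089 genes per day 6 cell. The shallow cells were all of day 6, where 14 of 93 cells had fewer than 1000 genes, 11 of them in series 1 and 10 of them IFE-B. Malat1, a nuclear RNA found in most cells, was above 10 in every day 0 cell and at 10 or less in 24 of 93 day 6 cells (25.8%, interval 17.3 to 35.9), of which 15 were IFE-B. Its level was 24800 at day 0, 7230 at day 6 and 2510 in unwounded set 1, and 11 of the 47 cells of that set were also at 10 or less. In lin- cells, which lack the tdTomato label, 0 of 48 cells at day 0 and 30 of 93 at day 6 were at 10 or less.

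The labelled cell types were read against markers. Krt5 and Krt14, the keratins of basal keratinocytes, had levels of 2930 and 4810 in day 0 IFE-B cells and 2310 and 4510 in day 6 IFE-B cells. Krt79, a keratin of the upper follicle, stood at 4650 in uHF-I and 212 in IFE-B at day 0 and at 1690 and 468 at day 6. Krt1, a keratin of the differentiated epidermis, was listed at 0 in both identities at both days. Krt14 did not separate the identities at day 6, since uHF-I cells stood at 4450, and Krt5 stood at 1180 and 1780 in uHF-I. Reads in at least 3 of the 5 IFE-B markers were found in 19 of 21 IFE-B cells at day 0 (90.5%, interval 69.6 to 98.8) and in 29 of 44 at day 6 (65.9%, 50.1 to 79.5), beside 9 of 17 and 18 of 26 uHF-I cells. At day 6 these markers thus did not set IFE-B apart from uHF-I. Reads in at least 3 of the 5 upper follicle markers were found in 16 of 17 and 19 of 26 uHF-I cells and in 11 of 21 and 15 of 44 IFE-B cells. IFE-B and uHF-I are used here as the deposited names. Of the markers of other cell types, no gene of the fibroblast, endothelial or Merkel and muscle lists reached a level of 10, and 1 gene each of the immune and melanocyte lists did. Cells with a read in any of the 14 immune genes were 2 of 46 at day 0 and 15 of 93 at day 6, and the highest summed immune level in a cell was 181 and 845. Of 7 mitochondrial and nuclear genes read as signs of RNA quality 3 were higher and 2 lower, and the ribosomal RNA precursor Rn45s stood at 205 at day 0, 1110 at day 6 and 79100 in unwounded set 1.

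Most lin+ cells were IFE-B or uHF-I at both days, and the shares of the identities at day 6 lay within the counting error of those at day 0. IFE-B held 21 of 46 cells (45.7%, interval 30.9 to 61.0) at day 0 and 44 of 93 (47.3%, 36.9 to 57.9) at day 6. uHF-I held 17 of 46 (37.0%, 23.2 to 52.5) and 26 of 93 (28.0%, 19.1 to 38.2), a difference of -9.0 points with an interval from -26.8 to 8.16. The outer bulge (OB), where stem cells of the follicle below the sebaceous gland reside, held 5 of 46 (10.9%, 3.62 to 23.6) and 15 of 93 (16.1%, 9.32 to 25.2). Of those 15 cells, 11 were in series 2 and 4 in series 1. The other upper follicle identities, uHF-II and uHF-III, held 1 and 2 cells at day 0 and 4 each at day 6, and no lin+ cell of either set was called sebaceous gland or differentiated epidermis. In unwounded set 1, 23 of 47 cells were IFE-B, 17 uHF-I and 3 OB. Lin- cells were mostly IFE-B as well, with 31 of 48 at day 0 and 57 of 93 at day 6, and uHF-I made up 2 and 5 of them.

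**Figure D1:**
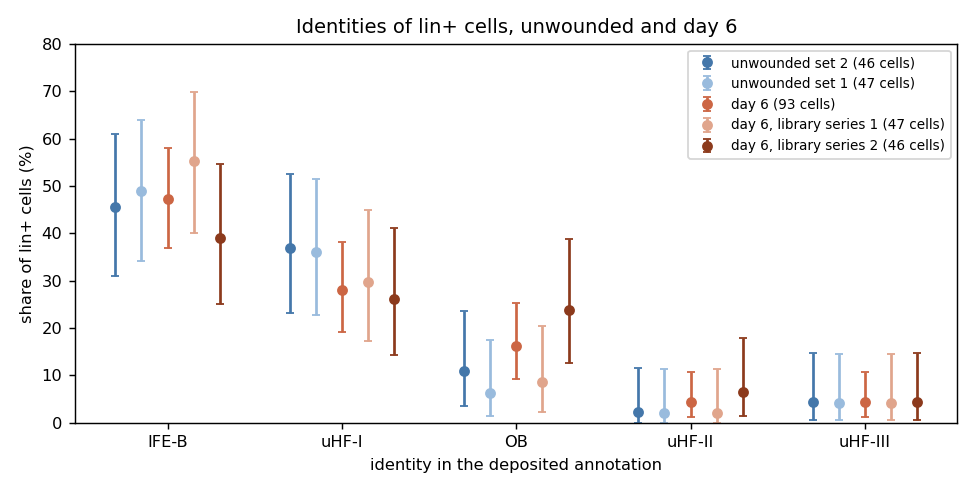
Share of lin+ cells in each deposited identity (percent of the cells of a set) at day 0 (46 cells) and day 6 (93 cells), with exact 95% binomial intervals as bars, beside unwounded set 1 and the 2 library series of day 6. Here the day 0 set is called unwounded set 2. IFE-B stood at 45.7% and 47.3% and uHF-I at 37.0% and 28.0%, and the bars of the 2 days overlap in every identity.

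Over the 7892 genes compared in all lin+ cells, 1677 (21.2%) were higher at day 6 and 2141 (27.1%) were lower, with a median fold change of -0.19. Such counts also arose where day did not differ: of 7490 genes compared between the 2 series of day 6, 2114 (28.2%) were higher in series 2 and 1516 (20.2%) lower. Unwounded set 1 was higher than the day 0 set in 23.9% of genes and lower in 47.7%. Many of the differences rested on 1 cell, since in 597 (35.6%) of the higher and 1068 (49.9%) of the lower genes a single cell carried at least 50% of the sum. For the 2660 genes with a level of 20 and reads in at least 25% of the cells of the higher side, 277 (10.4%) were higher at day 6 and 547 (20.6%) lower, beside 423 (16.4%) and 271 (10.5%) of 2585 between the series. Within IFE-B cells, 1894 (25.3%) of 7491 genes were higher and 2826 (37.7%) lower, and within uHF-I cells 2509 (33.6%) of 7465 were higher and 2300 (30.8%) lower. These shares are the background against which the counts of each gene group are read. Without the 24 day 6 cells low in Malat1, a choice made after the data were seen, the counts over all lin+ cells were 1843 higher and 1906 lower.

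Transcript length moved with the change. Of the 2660 genes, those shorter than 1000 bases had a median fold change of 0.38, with 18.4% of 613 higher and 4.08% lower. Genes of 4000 bases or more had a median of -0.85, with 3.85% of 571 higher and 42.6% lower. The genes that were higher had a median length of 1201 bases and those that were lower 3690 bases, beside 2076 over all. Lin- cells showed the same order, with medians of 0.53 in the shortest and -1.09 in the longest genes, whereas the medians between the 2 series of day 6 lay from 0.07 to 0.17 in all length groups. The part that length plays in the gene differences below was not tested.

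**Figure D2:**
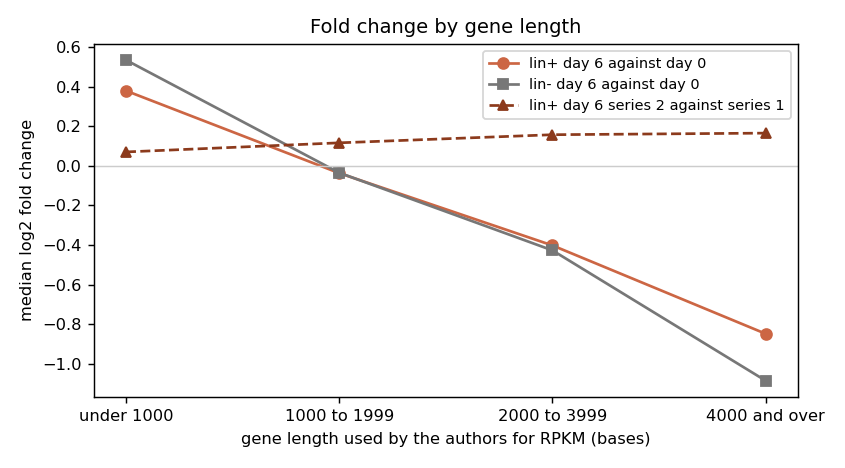
Median log2 fold change by gene length (bases, in groups that part at 1000, 2000 and 4000) for lin+ cells at day 6 against day 0, lin- cells at day 6 against day 0, and series 2 against series 1 of the day 6 lin+ cells. Both comparisons of day fall with length, from 0.38 to -0.85 in lin+ cells and from 0.53 to -1.09 in lin- cells, while the comparison of series stays between 0.07 and 0.17.

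Day 6 lin+ cells still expressed upper follicle genes, with lower Gata6 and, in uHF-I, lower Krt79. Of 12 genes of the upper follicle and sebaceous duct, 1 was higher and 3 were lower over all lin+ cells, with a median of -0.28, against 21.2% and 27.1% over all genes. At least 3 of the 12 genes stood above 10 in 37 of 46 cells at day 0 (80.4%) and in 65 of 93 at day 6 (69.9%), and in uHF-I in 16 of 17 and 25 of 26 cells. In lin- cells the same was true of 13 of 48 and 31 of 93 cells.

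Krt79 lies at chr15:101929332-101940324 of GRCm38, the build of the files. In uHF-I cells its values ran from 0 through a median of 5060 to 12000 at day 0, and from 0 through a median of 927 to 6570 at day 6. The 2 sides overlapped, with reads in 16 of 17 cells at day 0 and in 19 of 26 at day 6. Levels were 4650 and 1690, a fold change of -1.46. In IFE-B cells, where Krt79 was low, the level went the other way, from 212 (9 of 21 cells with reads) to 468 (16 of 44), a fold change of 1.14. Over all lin+ cells it was 2690 at day 0 and 1390 at day 6, a fold change of -0.95 (-1.06 without the cells low in Malat1), beside 5020 in unwounded set 1, 4100 in lin+ cells at day 9 and 1940 at day 11.

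Gata6 itself was read in few cells of either side. At day 0, 13 of 46 cells had reads (28.3%, interval 16.0 to 43.5) and at day 6 13 of 93 (14.0%, 7.66 to 22.7). Its level fell from 26.9 to 8.82 (fold change -1.51), and in uHF-I from 65.6 to 17.0 (-1.89). Unwounded set 1 stood at 74.0, so both unwounded sets were above day 6. In lin- cells Gata6 was listed at 0 at day 0 and stood at 2.33 at day 6.

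Other upper follicle genes moved less or the other way. Defb6, a beta-defensin at chr8:19225478-19228209 and the most abundant gene of the list, had reads in 33 of 46 and 59 of 93 cells, with medians of 2730 and 1180, highest values of 38100 and 106000 and levels of 8170 and 11300. In IFE-B cells its level was 1550 at day 0 and 5690 at day 6 (1.88), and 9 of 44 day 6 cells were above the highest day 0 cell. Of those 9, the cells at 68200, 61300, 22200 and 8130 were low in Malat1 and the others were not. The change of Defb6 in IFE-B without such cells was not worked out. Cst6, a cystatin that inhibits cathepsins, had levels of 7070 and 5730, and in uHF-I its median was 4520 at day 0 and 386 at day 6 while the fold change of the level was -0.37. Over all lin+ cells the fold change of Cst6 was -0.30 with every cell and -1.58 without the cells low in Malat1. Krt17, a keratin of the follicle that is also made at wounds, had levels of 3700 and 4730, and 3330 and 6340 in uHF-I (0.93). Plet1, a surface protein of the upper follicle, fell in uHF-I from 1070 to 378 (-1.49), and Atp6v1c2, a subunit of the proton pump, rose there from 69.3 to 224 (1.68). Lrig1, a brake on EGF receptor signalling that marks junctional zone stem cells, fell from 48.8 to 13.5 (-1.78), but 1 cell carried 67.6% of its day 0 sum.

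**Figure D3:**
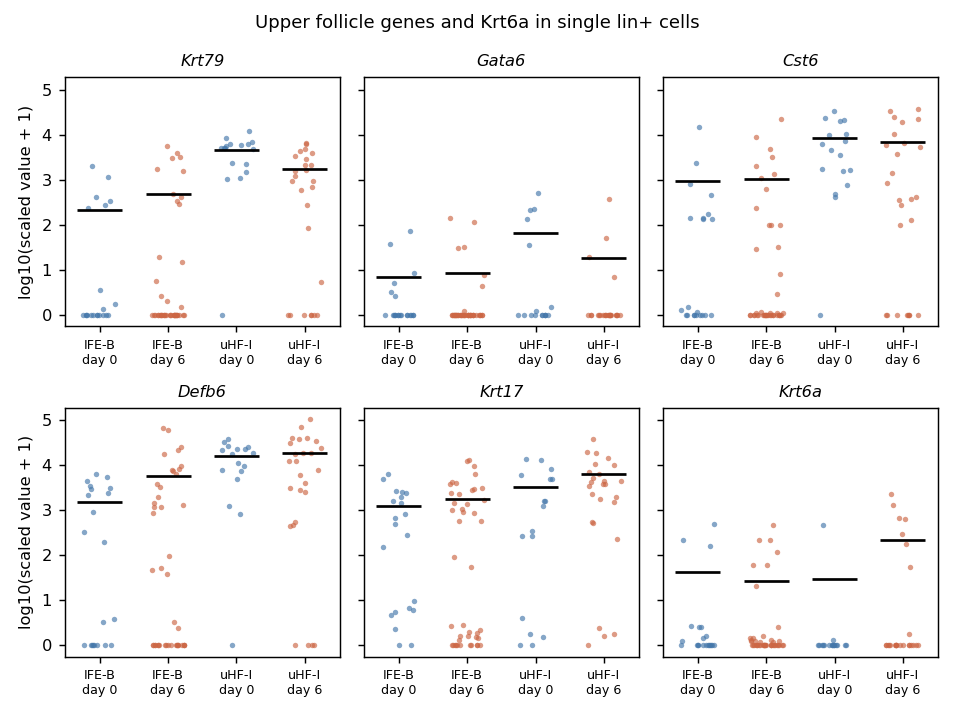
Scaled RPKM of upper follicle genes in each lin+ cell at day 0 and day 6 (log10 of the value plus 1), for IFE-B and uHF-I apart, with Krt6a. Each point is a cell and each line the level. The sides overlap for every gene, and Krt79 of uHF-I cells has no day 6 cell above the highest day 0 cell at 12000.

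Basal keratins had like levels on both sides over all lin+ cells, and several genes of adhesion to the basement membrane were lower in IFE-B. Krt14 had levels of 3850 and 3650, Krt5 of 2110 and 2130 and Krt15 of 7010 and 7050. Within both identities Krt15 was lower by less than 2-fold, at 6890 and 4330 in IFE-B and at 6530 and 3970 in uHF-I. Of 12 basal adhesion genes compared over all lin+ cells none was higher and 1 was lower, against 21.2% and 27.1% of all genes. In IFE-B cells none was higher and 6 of 13 were lower, against 25.3% and 37.7% of all genes, with a median of -0.86 beside -0.34. In uHF-I cells 5 of 14 were higher and 2 lower, against 33.6% and 30.8%. Col17a1, the transmembrane collagen of the hemidesmosome, had reads in 19 of 21 IFE-B cells at day 0 and in 26 of 44 at day 6, and its level fell from 341 to 134 (-1.34). Lamb3, a laminin chain of the basement membrane, fell in IFE-B from 77.5 to 11.6 (-2.64). Itga6, an integrin subunit that binds the basement membrane, fell in IFE-B from 67.2 to 29.3 (-1.17). In uHF-I it rose from 8.77 (1 of 17 cells with reads) to 32.1 (9 of 26, 1.76), and its uHF-I level was 4.72 in series 1 and 64.0 in series 2. The adhesion genes had a median length of 4684 bases, and genes of 4000 bases or more had a median fold change of -0.85.

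The keratins of activated epidermis were not higher over all lin+ cells, where none of 3 compared was higher and 1 was lower. Krt6a had levels of 95.3 and 82.0, with reads in 17 of 46 and 33 of 93 cells, and Krt6b of 2.12 and 1.31. In uHF-I, Krt6a was higher, from 28.5 (2 of 17 cells with reads) to 215 (8 of 26, fold change 2.87), and its highest value was 485 at day 0 and 2370 at day 6. Krt16, their partner keratin, fell from 74.8 to 15.9 (-2.17), with 68.1% of its day 0 sum in 1 cell. Reads of Krt6a and Krt6b, and of Krt14, Krt16 and Krt17, can be split between near-identical copies, so the single values of these genes are uncertain. Of 16 suprabasal and cornified genes compared, 2 were higher and 5 lower, against 21.2% and 27.1% of all genes. Krtdap, a secreted protein of differentiating keratinocytes, rose from 1520 (9 of 46 cells) to 4150 (36 of 93, 1.45), and the early differentiation keratin Krt10 fell from 178 to 85.9 (-1.04).

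Genes of MHC class II, which present peptides to CD4 T cells, were higher at day 6 than at day 0 in a minority of cells, most of them IFE-B. All 6 genes of the list that could be compared were higher over all lin+ cells, with a median fold change of 2.96, against 21.2% of all genes. All 6 were also higher in IFE-B (median 4.95), and 4 of 6 in uHF-I (1.93), against 25.3% and 33.6% of all genes there. However, of the 7 genes of the list 3 were listed at 0 in every IFE-B cell at day 0, and 1 in every uHF-I cell. Such genes could enter the comparison only through day 6 and could only be higher. Over all lin+ cells H2-Eb1, below 10 at day 0, likewise entered only through day 6. The seventh gene, Ciita, the coactivator that switches the family on, had reads in 1 cell of each side. The genes are printed with their promoters because they share a known control element, the Y box, whose core letters are CCAAT, or ATTGG on the other strand. These are the 300 bases from 250 before to 50 after the gene start, by RefSeq on GRCm38.p6, at chr17:34287774-34288073 on the minus strand for H2-Aa, chr17:34305617-34305916 on the plus strand for H2-Eb1 and chr17:34152941-34153240 on the plus strand for H2-DMb1, with CCAAT and ATTGG in capitals.
H2-Aa: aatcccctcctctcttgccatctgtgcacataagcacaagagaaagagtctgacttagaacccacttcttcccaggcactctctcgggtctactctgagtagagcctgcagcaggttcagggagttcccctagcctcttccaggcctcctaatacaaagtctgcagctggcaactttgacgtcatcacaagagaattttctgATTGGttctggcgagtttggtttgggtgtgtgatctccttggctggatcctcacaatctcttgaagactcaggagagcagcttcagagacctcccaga
H2-Eb1: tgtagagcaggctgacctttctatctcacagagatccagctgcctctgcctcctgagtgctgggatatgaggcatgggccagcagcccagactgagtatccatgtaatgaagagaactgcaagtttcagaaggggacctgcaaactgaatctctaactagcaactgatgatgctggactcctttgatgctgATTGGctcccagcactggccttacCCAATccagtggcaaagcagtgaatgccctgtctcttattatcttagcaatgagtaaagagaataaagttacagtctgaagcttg
H2-DMb1: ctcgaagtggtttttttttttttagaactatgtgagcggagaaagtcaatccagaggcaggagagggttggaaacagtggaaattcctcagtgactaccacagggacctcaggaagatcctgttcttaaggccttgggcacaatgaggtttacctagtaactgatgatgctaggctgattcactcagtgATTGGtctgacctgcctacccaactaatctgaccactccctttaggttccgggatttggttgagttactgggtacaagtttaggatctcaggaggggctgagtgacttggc
The capitals began 48 bases before the start of H2-Aa, 59 and 35 bases before that of H2-Eb1 and 61 bases before that of H2-DMb1. The letters were in 12289 of the 32851 promoters of this length (37.4%), so their presence is a description of these 3 genes and no sign of use. Promoters of H2-Ab1, Cd74 and H2-DMa are not printed here. For H2-DMa the letters were absent from the promoter at chr17:34122582-34122881. In its promoter at chr17:34125268-34125567 they began 198 bases before the gene start, farther away than in the printed genes.

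H2-Ab1, the beta chain of the I-A molecule (chr17:34263227-34269418), had reads in 3 of 46 cells at day 0 (6.52%, interval 1.37 to 17.9) and in 19 of 93 at day 6 (20.4%, 12.8 to 30.1). Values ran from 0 through a median of 0 to 983 at day 0 and to 10600 at day 6, and 14 day 6 cells were above the highest day 0 cell. Levels were 39.0 and 620, a fold change of 3.96. The rise was larger in series 1, at 965, than in series 2, at 268. H2-Aa, its alpha chain partner, rose from 26.4 to 296 (3.44), with 5 of 46 and 17 of 93 cells. H2-Eb1, the beta chain of I-E, rose from 5.95 in 1 cell to 96.4 in 14 cells (3.81). Cd74, the invariant chain that guides class II molecules through the cell, had reads in a like share of cells, 16 of 46 and 28 of 93, but rose from 274 to 1540 (2.48), and its highest value was 3490 and 25800. H2-DMb1, which helps to load the peptide, rose from 54.3 in 3 cells to 158 in 26 cells (1.52), and its reads can be shared with the near copy H2-DMb2. H2-DMa rested on 5 day 6 cells, all of series 1, where its level was 86.8 beside 11.7 at day 0, and it was listed at 0 in series 2.

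Within IFE-B cells H2-Ab1 was read in 1 of 21 cells at day 0 and 15 of 44 at day 6, with levels of 46.8 and 1130 (4.56). H2-Aa stood at 13.2 and 574 (5.34) and Cd74 at 429 and 2960 (2.78), while H2-Eb1 and H2-DMb1 were listed at 0 in all 21 day 0 cells and stood at 159 and 141 at day 6. In uHF-I the class II values lay in series 1 for H2-Ab1, H2-Aa and Cd74, which were listed at 0 in the 12 uHF-I cells of series 2.

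The class II genes were read together. At least 3 of the 7 stood above 10 in 3 of 46 cells at day 0 (6.52%, 1.37 to 17.9) and in 18 of 93 at day 6 (19.4%, 11.9 to 28.9), of which 12 were in series 1 and 6 in series 2. Of these 18 cells 14 were IFE-B, where the share was 1 of 21 at day 0 and 14 of 44 at day 6 (31.8%, 18.6 to 47.6). All 18 cells had Krt5, Krt14 or Krt15 above 10, 5 had a read in any immune gene and 1 had an immune gene above 10. In other sets the same was found in 0 of 47 cells of unwounded set 1, 0 of 48 and 5 of 93 lin- cells at day 0 and day 6, 4 of 44 lin+ cells at day 9 and 5 of 47 at day 11. Gjb2, the gap junction protein connexin 26, was above 10 in 12 day 6 cells, of which 7 were among these 18. It was read in 1 of 46 cells at day 0, at 0.172, and in 13 of 93 at day 6 with a level of 186, and 57.8% of that sum lay in 1 cell.

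**Figure D4:**
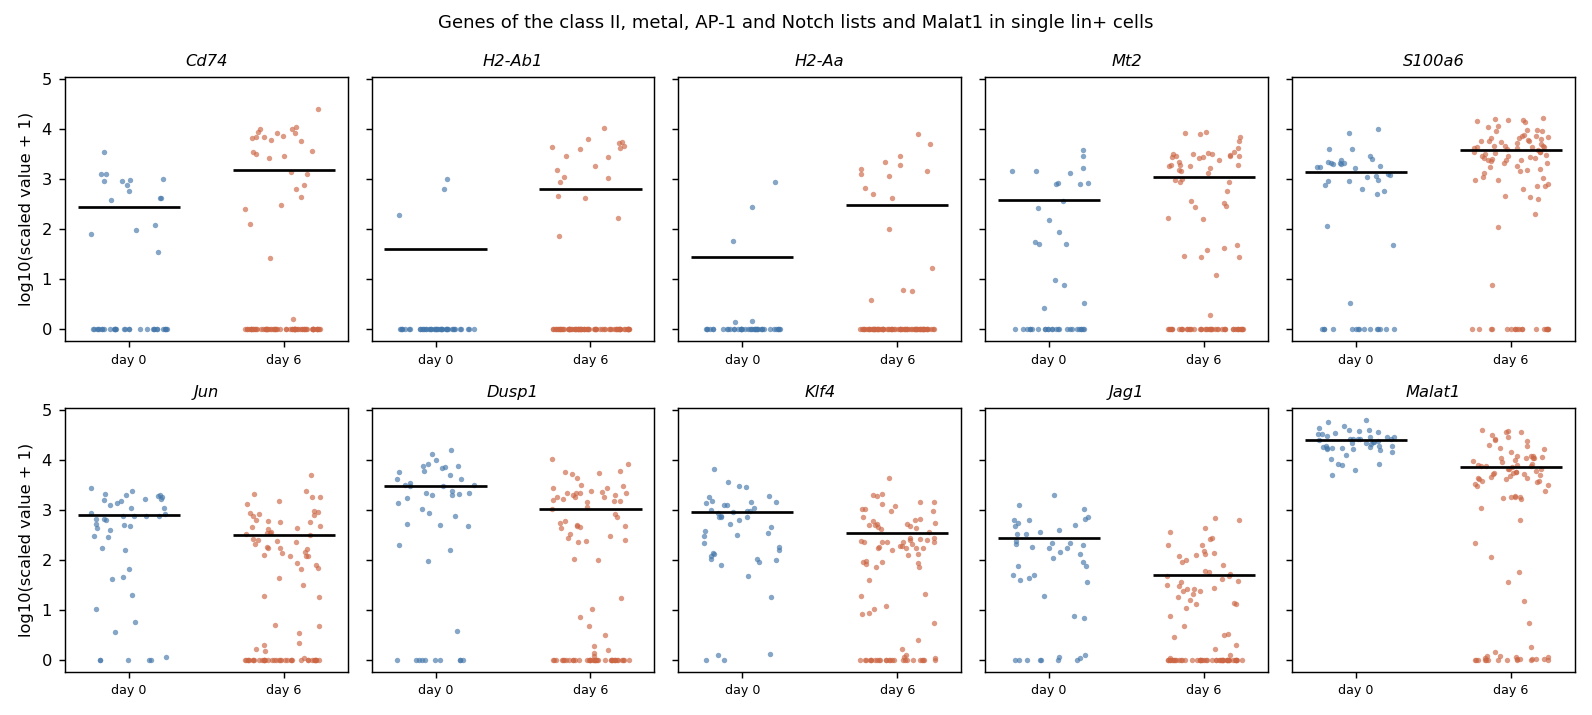
Scaled RPKM of genes in each lin+ cell at day 0 and day 6 (log10 of the value plus 1) for genes of the class II, metal, S100, AP-1 and Notch groups and Malat1. Each point is a cell and each line the level. H2-Ab1 and Cd74 reach 10600 and 25800 at day 6, beside 983 and 3490 at day 0, while most cells of both sides have no reads of H2-Ab1.

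Class I and interferon genes moved in both directions, with 8 of 20 higher and 3 lower, against 21.2% and 27.1% of all genes. Their median was 0.05. B2m, the shared light chain of class I molecules, had levels of 16100 and 15900. H2-K1, a class I heavy chain whose reads can be shared with other class I genes, fell from 2620 (46 of 46 cells) to 1150 (75 of 93, -1.19), and stood at 4650 in unwounded set 1. Ifitm3, an interferon-induced membrane protein, rose from 2340 to 4860 (1.06), and was at 2060 in unwounded set 1. Irf1, an interferon-driven transcription factor, fell from 67.8 to 11.0 (-2.52). Tap1, the peptide transporter, rose from 42.6 to 92.6 (1.10), but 48.9% of the day 6 sum lay in 1 cell and the change was -0.25 with series 1 alone.

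Several immediate early and AP-1 genes, which cells switch on within minutes of stress or growth factors, were lower at day 6, and most clearly in IFE-B. Of 23 compared over all lin+ cells, 2 were higher and 7 lower, a lower share close to the 27.1% of all genes, with a median of -0.73 beside -0.19. In IFE-B 1 was higher and 13 of 22 were lower, against 25.3% and 37.7% of all genes there. In uHF-I 3 of 21 were higher and 8 lower, against 33.6% and 30.8%. IFE-B also held 15 of the 24 day 6 cells low in Malat1, and their part in the IFE-B counts was not tested. At least 3 stood above 10 in 46 of 46 cells at day 0 and in 76 of 93 at day 6, beside 32 of 47 in unwounded set 1. Dusp1, a phosphatase that switches off MAP kinases, had reads in 36 of 46 and 55 of 93 cells, with medians of 1970 and 15.9 and highest values of 15700 and 10300. Its level fell from 2980 to 1040 (-1.52) and was 1310 in unwounded set 1. Jun and Junb, subunits of AP-1, fell from 786 to 318 (-1.30) and from 1580 to 641 (-1.30), beside 383 and 545 in unwounded set 1. Klf4, a factor of barrier differentiation, fell from 897 to 347 (-1.37), but unwounded set 1 stood below both, at 20.4. Against unwounded set 1, Dusp1 and Jun were lower at day 6 by less than 2-fold, and Junb and Klf4 went the other way, at 0.23 and 4.02.

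Notch genes changed both ways, and more epidermal transcription factors were lower than higher. Of 8 Notch genes 3 were higher and 4 lower, against 21.2% and 27.1% of all genes. Their median fold change was -1.02 and their median length 4773 bases. Jag1, a Notch ligand at chr2:137081451-137116520, had reads in 39 of 46 cells at day 0 (84.8%, interval 71.1 to 93.7) and in 47 of 93 at day 6 (50.5%, 40.0 to 61.1). Its values ran from 0 through a median of 134 to 1970 at day 0, and from 0 through 0.1 to 687 at day 6. The level fell from 268 to 49.8 (-2.41, with -2.10 in IFE-B and -2.53 in uHF-I), and lin- cells stood at 285 and 64.6. Unwounded set 1 stood at 4.88, so that day 6 was higher than this set by 3.11 on the log2 scale. The receptor Notch2 fell from 38.1 to 7.92 (-2.13) and the Notch target Hes1 from 601 to 258 (-1.22). Spry2, an inhibitor of ERK signalling, fell from 108 to 14.1 (-2.86) and from 237 to 24.0 in lin- cells, and stood at 12.9 in unwounded set 1. Of 22 epidermal transcription factors 2 were higher and 10 lower (median -0.95), against 21.2% and 27.1% of all genes. Among the lower ones Ovol1 fell from 266 to 38.1 (-2.77) and Tfap2c from 142 to 40.8 (-1.77). Against unwounded set 1 these genes were higher at day 6, Notch2 by 0.82, Hes1 by 0.71, Spry2 by 0.12, Ovol1 by 0.35 and Tfap2c by 1.05 on the log2 scale, and the median of the Notch genes was 0.71. Sfn, the epidermal 14-3-3 sigma, fell from 13900 to 6710 (-1.05), with reads in 46 of 46 and 85 of 93 cells, and stood at 2420 in unwounded set 1, so that it was higher at day 6 than in this set (1.47).

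More genes of the respiratory chain were higher than lower at day 6, though most stayed within 2-fold, and several metal-binding and S100 genes were higher. Of 94 respiratory chain genes 30 were higher and 3 lower, against 21.2% and 27.1% of all genes, with a median of 0.59 beside -0.19. In IFE-B 23 of 94 were higher and 11 lower, against 25.3% and 37.7%, so the higher share was close to that of all genes. In uHF-I 38 of 91 were higher and 4 lower, against 33.6% and 30.8% of all genes there. Their median length was 679 bases, and genes shorter than 1000 bases had a median fold change of 0.38. Ndufa6, a subunit of complex I, had reads in 19 of 46 and 58 of 93 cells, with medians of 0 and 347, and its level rose from 143 to 708 (2.30). Atp5mpl, a small subunit of ATP synthase, rose from 356 to 1220 (1.78). Of 77 cytosolic ribosomal protein genes 10 were higher and 3 lower, against 21.2% and 27.1% of all genes, so most stayed within 2-fold. Their median fold change was 0.26 and their median length 684 bases. Of 8 metallothionein and metal genes 3 were higher and none lower, against 21.2% and 27.1% of all genes. Fth1, the ferritin heavy chain that stores iron, rose from 367 (18 of 46 cells) to 1150 (58 of 93, 1.64). Mt2, a metallothionein that binds zinc, rose from 372 to 1120 (1.58). S100a6, a calcium-binding protein at chr3:90612894-90614414, had medians of 905 and 2630 and highest values of 9840 and 16600, and rose from 1380 to 3760 (1.45, with 1.17 in IFE-B and 1.79 in uHF-I). In unwounded set 1, Ndufa6 stood at 291, Atp5mpl at 456, Fth1 at 873, Mt2 at 559 and S100a6 at 3170, all below day 6 and above the day 0 set.

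Among genes of the outer bulge and of signals, Cxcl14 and Postn were higher in uHF-I cells. Of 8 outer bulge genes compared in uHF-I 6 were higher and none lower (median 1.92), against 33.6% and 30.8% of all genes there. In IFE-B 1 of 7 was higher and 4 were lower, against 25.3% and 37.7%. Of the 13 genes of the list, 5 were listed at 0 in every uHF-I cell at day 0 and could only be higher, beside 1 at day 6. The mean summed level of the list in uHF-I was 7741 at day 0 and 6487 at day 6. Cxcl14, a chemokine at chr13:56288643-56296811, had reads in 2 of 17 uHF-I cells at day 0 (11.8%, 1.46 to 36.4) and in 13 of 26 at day 6 (50.0%, 29.9 to 70.1). Its highest value was 232 and 5940, 12 day 6 cells were above the highest day 0 cell, and its level rose from 14.5 to 716 (5.53), with 508 in series 1 and 959 in series 2. Over all lin+ cells it rose from 367 to 1060 (1.53), beside 177 in unwounded set 1. Postn, a matrix protein of the bulge, rose in uHF-I from 36.5 to 222 (2.57) and fell in IFE-B from 188 to 71.5 (-1.39). The bulge markers Cd34 and Lgr5 were read in few cells, Cd34 in 5 of 46 and 8 of 93 and Lgr5 in 3 and 8, with levels of 155 and 65.8 and of 1.85 and 15.3, and 81.0% of the day 0 sum of Cd34 lay in 1 cell. Mgst1, a glutathione transferase of sebaceous cells, rose in IFE-B from 182 (3 of 21 cells) to 1260 (24 of 44, 2.79). Scd1, the fatty acid desaturase of the sebaceous gland, was read in 6 of 46 and 10 of 93 cells, at 16.5 and 25.5. Of 13 chemokine and cytokine genes over all lin+ cells 3 were higher and 6 lower (median -0.98), against 21.2% and 27.1% of all genes.

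Most mitosis genes were lower at day 6 than in the day 0 set, but not against unwounded set 1, where their median turned to 1.38, and DNA replication genes were mostly not lower. Of 19 mitosis genes 2 were higher and 14 lower (median -1.68), against 21.2% and 27.1% of all genes. In IFE-B 2 of 23 were higher and 17 lower (-2.13), against 25.3% and 37.7% of all genes there. In uHF-I 3 could be compared, of which 2 were higher and 1 lower. Cells with at least 3 of these genes above 10 were 8 of 46 at day 0 (17.4%, 7.82 to 31.4) and 7 of 93 at day 6 (7.53%, 3.08 to 14.9), so the intervals of the shares overlapped, and in unwounded set 1 there was 1 of 47. In lin- cells they were 3 of 48 at day 0 and 13 of 93 at day 6. Birc5, a subunit of the chromosomal passenger complex, fell from 31.9 (13 of 46 cells) to 8.17 (22 of 93, -1.84). Of 24 DNA replication genes 9 were higher and 3 lower (median 0.55), against 21.2% and 27.1% of all genes. In uHF-I 14 of 18 were higher and none lower (3.67), against 33.6% and 30.8% of all genes there. However, 13 of the 29 genes of the list were listed at 0 in every uHF-I cell at day 0, and 2 at day 6. Such genes entered the comparison only through day 6 and could only be higher. Cells with at least 3 of them above 10 were 17 of 46 and 30 of 93 in all, and 3 of 17 and 9 of 26 in uHF-I. Myc, which drives growth, fell from 533 to 231 (-1.20) over all lin+ cells and from 655 to 167 in IFE-B (-1.97), whereas uHF-I stood at 360 and 368. Unwounded set 1 stood at 49.1, below day 6.

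The largest changes were taken among genes with a level of at least 20 and reads in at least 25% of the cells of the higher side, and the same direction in both series. At the higher end stood Rflnb, a regulator of filamin, with reads in 2 of 46 cells at day 0 and 30 of 93 at day 6 and levels of 0.616 and 97.0 (5.92). Borcs7 of the lysosome-positioning BORC complex went from 2.06 to 97.6 (5.01). Thbs1, the matrix protein thrombospondin 1, went from 0.487 (highest cell 7.87) to 46.8 (highest cell 1110, 5.01), with reads in 14 of 46 and 24 of 93 cells. Thbs1 stood at 0.396 in unwounded set 1, but at 337 and 143 in lin- cells at day 0 and day 6. Dtymk, a kinase that makes thymidine diphosphate, rose from 16.7 (4 of 46 cells) to 159 (29 of 93, 3.18). Cript and Eny2 also stood at this end, but 1 cell held 82.9% and 85.0% of their day 6 sums. The other 6 were Nip7, Rnf149, Pgls, Snrnp70, Aknad1 and St13, with fold changes from 2.90 to 3.90.

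At the lower end, Abcg1, a cholesterol exporter, fell from 111 (20 of 46 cells) to 8.03 (18 of 93, -3.63), and stood at 0.258 in unwounded set 1, below day 6. Fcgrt, the neonatal Fc receptor, fell from 59.5 (15 of 46) to 4.36 (3 of 93, -3.50), and was at 6.88 in unwounded set 1. Nprl3 of the GATOR1 complex, which restrains mTORC1, fell from 37.2 (25 of 46) to 1.61 (14 of 93, -3.87), beside 24.7 in unwounded set 1. For Tmem170b, Rfx7, Dusp23, Kifc2, Kmt2c and Zfp971 a single day 0 cell carried from 68.7% to 98.7% of the sum. Plet1os, Inava and Zfp445 made up the rest, at -4.18, -3.30 and -3.27. In IFE-B the higher end was Gjb2, H2-Eb1, Pttg1ip, Jtb, Chchd3 and Erp29, of which the first 4 were listed at 0 in all 21 day 0 cells. In 5 of the 6 at the lower end of IFE-B (Dedd, Tmem170b, Smg5, Trpm7 and Impact) 1 day 0 cell held from 80.9% to 97.9% of the sum, and the exception was Inava at 46.4%. In uHF-I, Ddit3, the stress factor CHOP, was listed at 0 in 17 day 0 cells and read in 7 of 26 day 6 cells with a level of 388, and Fuom, Krtcap3, Cfap36 and Ppa1 were also listed at 0 at day 0, while Hpf1 went from 0.0224 to 251. Among genes at the lower end of uHF-I, Kif2a, a kinesin, fell from 222 to 0.179 and Pim1, a kinase, from 62.0 to 0.00734, with Polg2 and Mettl21a listed at 0 at day 6 and Fam120c going from 60.5 to 0.0064.

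The share of cells with reads differed by at least 20 points in 52 genes (0.659%) towards day 6 and in 190 (2.41%) towards day 0. The genes named here are among the 15 at each end of that order. Eif4e2, a cap-binding protein, was read in 23.9% of day 0 and 60.2% of day 6 cells, and Dynll1, a dynein light chain, in 41.3% and 68.8%, with levels of 118 and 424. Fewer cells had reads of Kmt2d, Arid1a, Ncoa3, Fosb and Pwwp2a at day 6. Kmt2d, a histone methyltransferase, went from 93.5% to 54.8%, Arid1a of the SWI/SNF complex from 69.6% to 32.3%, Ncoa3, a receptor coactivator, from 89.1% to 50.5% and Fosb, a subunit of AP-1, from 78.3% to 37.6%. Pwwp2a showed the largest difference, from 76.1% to 23.7%. Of the AP-1 list 7 genes lost at least 20 points.

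Some genes differed in the same direction in IFE-B and uHF-I cells and others in opposite directions. Of the genes compared in each identity, 25.3% were higher and 37.7% lower in IFE-B, and 33.6% and 30.8% in uHF-I. Whether the overlap was more than these shares alone would give was not tested. Of 5903 genes compared in both identities, 556 were higher in both, 718 lower in both, 349 higher in IFE-B and lower in uHF-I, and 598 the reverse. Of the 1204 that also met the rule of level and share in both, 91 were higher in both, 225 lower in both and 34 and 91 went opposite ways.

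The counts of the other groups are given with higher members before lower ones, beside 21.2% and 27.1% of all genes. Most members stayed within 2-fold in the groups from actin to cholesterol synthesis, except the sebaceous and lipid genes. Of 33 actin and contractility genes 3 were higher and 3 lower (median 0.00), of 22 glycolysis and hypoxia genes 5 and 5 (0.06), of 21 desmosome and junction genes 4 and 3 (-0.11) and of 19 Myc target and ribosome biogenesis genes 2 and 3 (-0.09). Antioxidant genes had 2 higher and 2 lower of 18, genes of endoplasmic reticulum stress 2 and 3 of 18, heat shock genes 1 and 2 of 11, and cystatins, cathepsins and serpins 3 and 2 of 17. Retinoic acid genes had 1 higher and 1 lower of 6, sebaceous and lipid genes 1 and 3 of 8, Id and BMP genes 1 and none of 7, and alarmins 3 and none of 9 (median 0.47). Cholesterol synthesis genes had 1 and 4 of 17 (-0.50) and EGF and ERK feedback genes 2 and 3 of 9 (-0.35), lower shares close to that of all genes. Other groups with more lower than higher members were p53 targets, with 1 and 4 of 9 (-0.66), migration and matrix genes, with 2 and 3 of 7 (-0.89), YAP and mechanical genes, with 1 and 5 of 10 (-1.10), and replication-dependent histones, with 7 and 12 of 27 (-0.20).

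**Figure D5:**
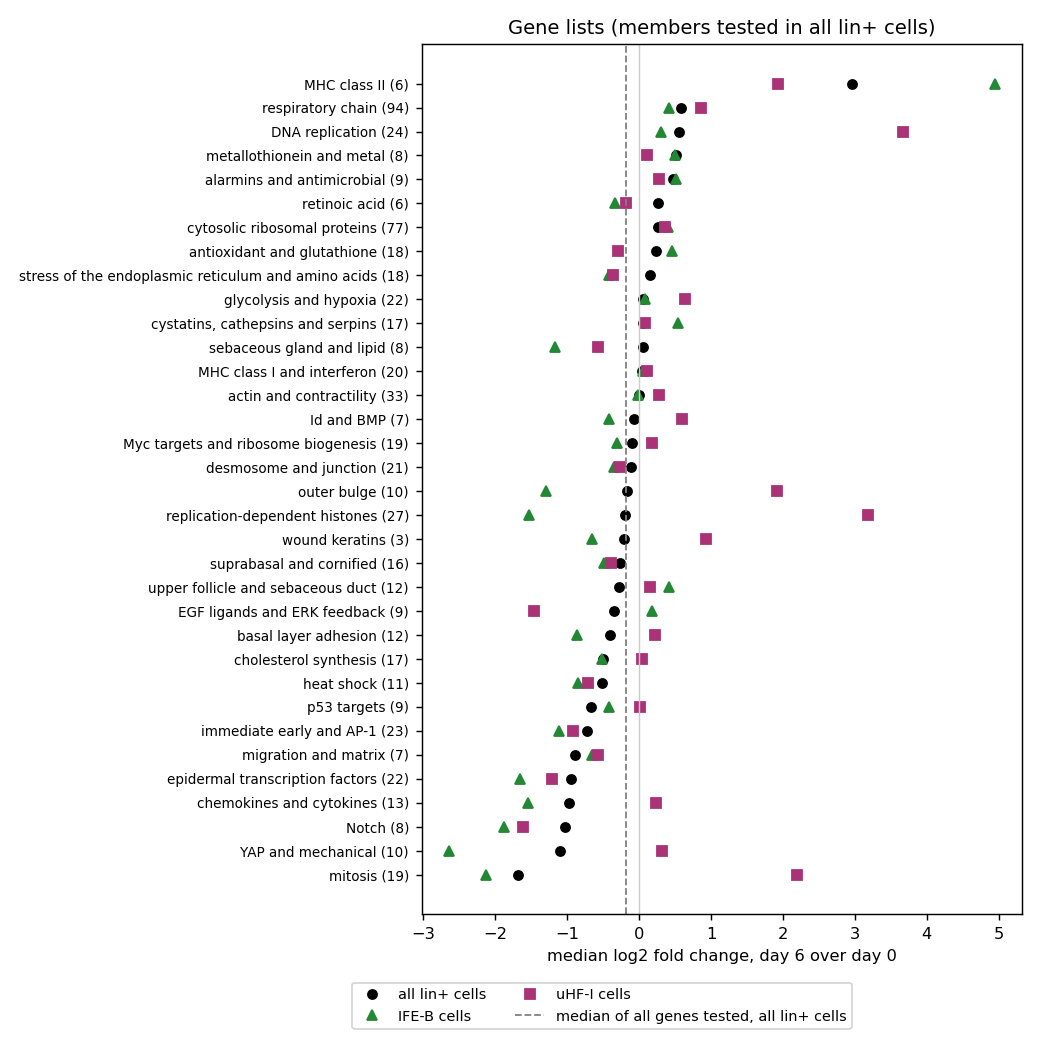
Median log2 fold change at day 6 against day 0 of each gene list, over all lin+ cells and within IFE-B and uHF-I cells, for lists with at least 3 genes compared (their number in brackets). MHC class II stands highest over all lin+ cells at 2.96, mitosis lowest at -1.68, and the dashed median of all genes lies at -0.19.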

How the data were processed

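RNA of single mouse back skin keratinocytes was measured by Smart-seq2, with 93 lin+ cells at day 6 and 46 at day 0. Per the labels, the authors trimmed reads with Trimmomatic (0.27), aligned them with STAR (2.2) to GRCm38 (mm10) and counted genes with featureCounts, and they deposited RPKM values for these cells together with identities clustered in Seurat (3.2.2). For unwounded set 1 the authors deposited counts, which were divided by gene length, scaled in the same way and used beside the main values only. Gene lengths were recovered from the ratio of counts to RPKM in cells of that batch deposited as both. Reads of the lin+ cells compared were recovered from the steps of their RPKM values times gene length. Of values below 200 reads in genes with a length, 99.9891% on average and at least 99.7024% in a cell lay within 0.02 of a whole read.

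RPKM was scaled to 1000000 per cell and averaged over cells, and 1 was added before taking log2. Genes with a level of at least 10 on either side were compared, and 2-fold was the limit for higher and lower. Reads ranged from 1300471 to 4501077 per cell at day 0 and from 30683 to 5667065 at day 6. With 1 mouse set a side no test was made. Cells are not replicates, and PCR copies were not told apart, so that exact (Clopper-Pearson) intervals cover counting error only. Genes were named if the study follows them in lin+ cells over time, if they were among the 12 at each end of the fold changes in all lin+ cells or the 6 at each end in IFE-B and uHF-I under a rule of level (20), share (25%) and direction in both series, or if they were among up to 4 members of each gene list furthest from 0 under the level and share rule. Other members and controls with their values (Krt5, Krt14, Krt15, Krt6b, H2-Aa, H2-Ab1, H2-Eb1, H2-DMa, B2m, Gjb2 beyond IFE-B and the ends of the shares of cells) were chosen after their values were seen. The members and lists were chosen with earlier results of these data known. Lin+ cells, lists and counts were worked out in Python (3.11.15) with numpy (2.4.6), pandas (2.3.3) and scipy (1.17.1), and the scripts were tested on simulated data. Alternatives were another pseudocount, filter, scaling and control set, each library series alone, the mean of log2 values, sums of recovered reads and leaving out the highest cell or low cells. Doublets were not called. The table holds 60 further columns of cells with no matching label, which were not used. Some genes that the rule names are not reported here.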

Additional observations from a re-analysis of the deposited data

Results flagged for a closer look

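Of the 18 genes that the study follows in lin+ cells over time, 3 changed in opposite directions by at least 2-fold in IFE-B and in uHF-I cells between day 0 and day 6. Such opposite changes were also common over all genes. Of 5903 compared in both identities, 349 were higher in IFE-B and lower in uHF-I, and 598 the reverse. Krt79 was higher at day 6 in IFE-B cells, with a log2 fold change of 1.14, and lower in uHF-I cells, at -1.46. Itga6 was lower in IFE-B cells at -1.17 and higher in uHF-I cells at 1.76. This rise of Itga6 in uHF-I came from library series 2 alone, since series 1 stood below day 0. Postn was lower in IFE-B cells at -1.39 and higher in uHF-I cells at 2.57. With 1 mouse set a side the difference between the identities was not tested, and Itga6 and Postn were read in 1 and 2 of the 17 uHF-I cells of day 0.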

How the results depend on the processing

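With 1 mouse set a side and no mouse named in the labels, none of the differences can be set against the spread between mice, and the cells low in genes or Malat1 were all of day 6. No paired analysis was possible because the 2 sides share no replicate number. The differences in the shares of identities stayed within counting error of the reported ones in all 12 alternatives run. Counts of genes depended most on how cells were averaged. With the mean of log2 values, 294 genes were higher and 488 lower over all lin+ cells, 320 and 1175 in IFE-B, and 1287 and 743 in uHF-I. Without the highest cell of each set, 1174 were lower over all lin+ cells, 1462 in IFE-B and 1083 in uHF-I. With no filter on low values, 3361, 3444 and 4006 were higher, and with a filter of 50, 533 were higher and 771 lower over all lin+ cells. Counting cells with a value above 10, 28 genes gained 20 points in share, and 87 with series 2 alone. Leaving out cells low in Malat1 was chosen after seeing the data. It gave medians of 2.71 for MHC class II, -0.66 for AP-1, -0.62 for Notch and -1.28 for mitosis genes.

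Unwounded set 1 as the control changed most. Against it 3240 genes were higher over all lin+ cells, 3314 were higher and 1774 lower in IFE-B, and 847 genes gained and 56 lost 20 points in share. The median reversed for mitosis (1.38) and Notch genes (0.71), and the log2 fold change reversed for Junb (0.23), Klf4 (4.02), Jag1 (3.11), Notch2 (0.82), Hes1 (0.71), Spry2 (0.12), Ovol1 (0.35), Tfap2c (1.05), Sfn (1.47), Malat1 (1.53), Rn45s (-6.16), Cd34 (6.06), Myc (2.21), Pgls (-0.51), Aknad1 (-0.84), Kifc2 (0.73), Abcg1 (2.84), Zfp971 (2.57), Inava (1.33) and Zfp445 (0.028). In IFE-B it reversed for Pttg1ip (-1.49), Dedd (0.11), Tmem170b (0.45) and Trpm7 (0.32), and in uHF-I for Krtcap3 (-1.41), Kif2a (0.22) and Fam120c (0.009). Other reversals were Cd34 at the identity mix of day 0 (0.69), Zfp971 without its highest cell (0.47), Tap1 as a mean of log2 values (-0.23) or in series 1 (-0.25), and H2-DMa in series 2 (-3.67). The cause of these changes was not tested. The MHC class II genes, Cxcl14, Ndufa6 and Gata6 did not reverse against unwounded set 1, nor did S100a6 (0.25) and H2-DMa (0.59), which then stayed within 2-fold.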
